A study of Mus musculus with 12 samples.

Results

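The genes described here are *Socs3*, *Sharpin*, *Nr1h3*, *Mefv*, *Lgals9*, *Aoah*, *Ada* and *Pbk*. They belong to the study's list of inhibitors of NF-kB signaling, from which *Metrnl*, *Smpdl3b*, *Tnfaip8l2*, *Siglece* and *Il10* were among the genes set aside. They were taken by name from that list, with earlier results of these data known. All 8 symbols matched 1 gene each among the 54446 genes of the count tables. The study showed the list together with its own sequencing of the same kind of cells. Its methods took expression changes from Inputs of either its m6A-seq or its RIP-seq, so the list may rest in part on these libraries. It is therefore not independent evidence of how its members respond to irradiation.

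NF-kB is a family of transcription factors that is held in the cytoplasm by IkB proteins and released when the IKK kinase complex marks IkB for destruction. In myeloid cells it drives genes for cytokines, chemokines and survival, and many proteins limit it at the receptor, in the cytoplasm or at the target genes. YTHDF2 is a cytoplasmic protein that binds mRNA carrying N6-methyladenosine (m6A) and brings it to the deadenylation machinery, which shortens the life of the transcript. RNA immunoprecipitation of YTHDF2 (RIP-seq) therefore asks which transcripts are held by the protein, by comparing the precipitated RNA (IP) with the RNA of the same lysate (Input).

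The 12 libraries came from CD11b+ myeloid cells of MC38 tumors, a mouse colon carcinoma line grown under the skin, in mice aged 8 to 10 weeks. All mice were WT, which in the study means *Ythdf2* f/f mice with no Cre, and their tumors were either left unirradiated (Ctrl) or given local ionizing radiation (IR) of 20 Gy in 1 dose 3 days before the cells were collected. There were 3 pools per condition, each of cells from 5 mice, and every pool gave an Input and an IP library, which makes 3 libraries in each of the groups Ctrl Input, IR Input, Ctrl IP and IR IP. The study calls the pools technical replicates, so p-values measure the spread between these pools only, and it used bead selection for CD11b, which does not separate monocytes from neutrophils.

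Between 27852948 and 42382532 reads per library were counted on genes. The share of reads that matched no counted feature was 26.9 to 27% in Ctrl Input and 24.6 to 24.8% in IR Input. It was 41.8 to 42.7% in Ctrl IP and 49.4 to 54.1% in IR IP, so it moved with both comparisons. Such reads need not lie outside genes, as they may include reads in introns. The CD11b label held in the data: *Itgam*, which encodes CD11b, had a mean of 944 CPM (counts scaled to library size) in Ctrl Input and 1719 CPM in IR Input. In the Inputs, 12 monocyte and macrophage markers summed to 4216 to 4337 CPM in Ctrl and 5192 to 5234 CPM in IR. This sum includes *Itgam*, and the other markers did not all rise. Means of *Csf1r* (214 and 208 CPM), *Mrc1* (124 and 95 CPM), *Adgre1* and *Fcgr1* were lower in IR. Those of *Lyz2* (2469 and 2587 CPM), *Ly6c2*, *Ccr2*, *Cd68*, *C1qa*, *C1qb* and *C1qc* were higher. The 10 neutrophil markers summed to 10819 to 11491 CPM in Ctrl and 13884 to 14411 CPM in IR. The 9 T and NK cell markers summed to at most 2.16 CPM in any Input library. The 8 epithelial markers, which would mark MC38 cells, summed to 119 to 128 and 90.9 to 97.1 CPM, nearly all of it *Cdh1*, and *Krt19* was at 0 CPM. These are bulk samples, so fewer cells of a type and less RNA per cell cannot be told apart, and the part of these shifts in the results was not tested.

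The methyl mark that YTHDF2 reads is placed on adenosines within a short consensus whose most common form is GGACT. Every member carries GGACT in its longest coding transcript, and for each the site nearest to the stop codon that lies within 1 exon is shown, with GGACT in capitals and 10 bases on either side. The letters are those of the transcript strand of the GENCODE annotation on mm10. A match is a description of the sequence and does not show that the site is methylated or bound.
Socs3: acggccacctGGACTcctatgagaa
Sharpin: actttgcaggGGACTgatgcttgtt
Nr1h3: ccttcctcaaGGACTtcagttacaa
Mefv: actaccctggGGACTcctagctttg
Lgals9: accctccaggGGACTaccaagagtt
Aoah: aagaccctccGGACTctcacttcag
Ada: aggtcccaggGGACTtgacaatcat
Pbk: atgcgccctgGGACTtgagaagagt

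In *Sharpin* (chr15:76347111-76347135, minus strand), *Mefv* (chr16:3707882-3707906, minus strand), *Ada* (chr2:163726884-163726908, minus strand) and *Pbk* (chr14:65817660-65817684, plus strand) the site was in the 3′ UTR, 75, 81, 169 and 259 bases after the stop codon. In *Socs3* (chr11:117967614-117967638, minus strand), *Aoah* (chr13:21002930-21002954, plus strand), *Nr1h3* (chr2:91190208-91190232, minus strand) and *Lgals9* (chr11:78976623-78976647, minus strand) it was in the coding sequence, 73, 317, 391 and 956 bases before the stop codon. *Aoah* had the most GGACT per length, 7 sites or 2.4 per kb, a density above that of 94.2% of the 13019 protein-coding genes compared. *Nr1h3* had the fewest, 1 site or 0.512 per kb, above 18% of them. The median of those genes was 1.05 per kb and 92.4% had at least 1 site, so carrying GGACT does not set the members apart. ATTTA, the core of the AU-rich elements that mark unstable mRNAs, occurred 4 times in *Socs3*, each time in the 3′ UTR, and was not present in *Sharpin*, *Nr1h3* or *Lgals9*, whereas 78.6% of the genes compared had it. Both motifs were searched on the transcript strand only.

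All 8 genes were measured in every library, with 35 to 2508 counts per gene and library. To compare levels between genes, CPM were divided by the length of all merged exons of the gene. In Ctrl Input *Lgals9* was highest with 21.8 ± 0.483 CPM per kb (SD, n = 3), followed by *Socs3* with 18.4 ± 0.904 and *Sharpin* with 14.8 ± 0.566 CPM per kb. *Pbk* (7.54 ± 0.575 CPM per kb) and *Nr1h3* (7.13 ± 0.773 CPM per kb) came next and their libraries overlapped, then *Aoah* with 5.08 ± 0.314 CPM per kb. *Ada* (2.47 ± 0.363 CPM per kb) and *Mefv* (1.93 ± 0.406 CPM per kb) were lowest and also overlapped. The order depends on the length used. The merged exons of *Sharpin*, whose annotated transcripts include retained introns, cover 93.7% of the gene, and per kb of the longest coding transcript it ranked first, with 32.5 CPM per kb against 29.4 for *Lgals9*. On that scale *Aoah* also moved up, to the fourth place with 10.3 CPM per kb, ahead of *Nr1h3* (9.18 CPM per kb) and *Pbk* (7.85 CPM per kb).

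In the IP the order was different. *Sharpin* (12.8 ± 0.97 CPM per kb, SD, n = 3) and *Socs3* (11.8 ± 1.32 CPM per kb) led in Ctrl IP with overlapping libraries, *Nr1h3* was at 7.66 ± 1.53 CPM per kb, and *Lgals9* had dropped to the fourth place with 5.3 ± 0.118 CPM per kb. *Aoah*, *Mefv*, *Pbk* and *Ada* had 2.67, 2.21, 1.72 and 1.52 CPM per kb, and each overlapped with the next. In IR IP *Socs3* (15.4 ± 0.463 CPM per kb) and *Sharpin* (12.3 ± 3.03 CPM per kb) overlapped again, as did *Nr1h3* and *Lgals9*, and *Pbk* was lowest with 1.09 ± 0.38 CPM per kb.

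**Figure D1:**
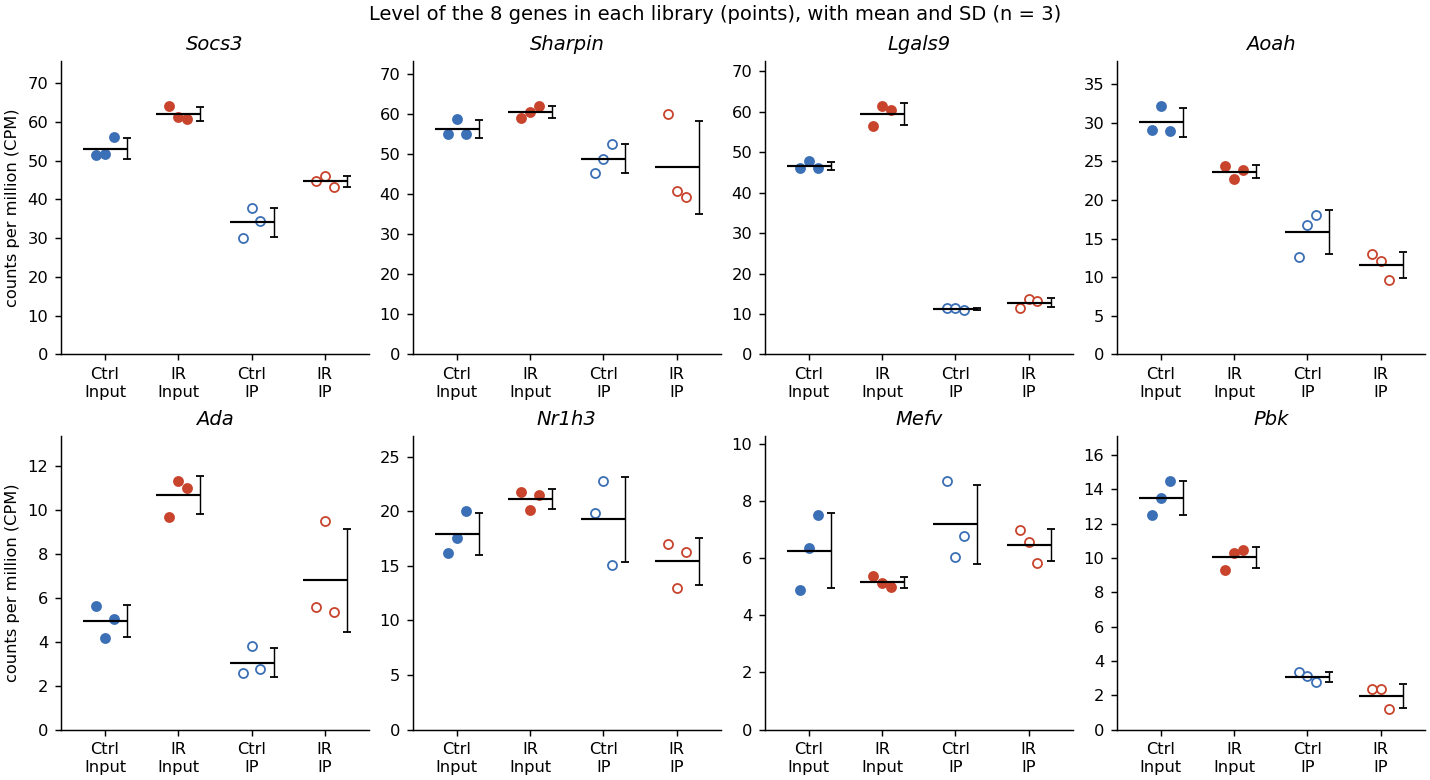
Level of each gene in the 12 libraries, in CPM on a linear axis that starts at 0; filled points are Input and open points IP libraries, blue is Ctrl and red IR, and the line and bar give the mean and SD of 3 libraries. *Lgals9* and *Pbk* stand far lower in IP than in Input in both conditions, *Ada* is higher in IR than in Ctrl in both fractions, and the *Sharpin* library IR IP 1 stands at 60.1 CPM above the other IR IP libraries.

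No member was called enriched in the YTHDF2 IP with all libraries in the test. In Ctrl, 5 of 8 (*Pbk*, *Lgals9*, *Aoah*, *Ada* and *Socs3*) had less signal in IP, where 34.6% of the 17416 genes tested were lower, and 0 of 8 were higher, where 34.1% of all genes were (68.7% in either direction). In IR, 5 of 8 were lower (*Pbk*, *Lgals9*, *Aoah*, *Socs3* and *Nr1h3*), where 30.4% of 18650 genes were, and 0 of 8 were higher, where 32.1% were (62.6% in either direction). Calls were made with the quasi-likelihood test of edgeR at an adjusted p under 0.05, with p-values adjusted over all genes tested by the method of Benjamini and Hochberg. Also 0 members were higher at an unadjusted p under 0.05, and 0 with DESeq2. These fits did not pair IP and Input. With the replicate number as a block, edgeR called 7 of 8 lower in IR, where 5706 of 18650 genes were. In Ctrl it called 5 of 8 lower, where 5933 of 17416 genes were. With 1 library left out, edgeR called *Nr1h3* higher in Ctrl without Ctrl IP 3 (0.36, adjusted p = 0.013). It called *Mefv* higher in IR without IR IP 3 (0.52, adjusted p = 0.0416). The median log2 IP/Input of the members was −0.59 in Ctrl, against 0.018 over all genes, and −0.51 in IR, against 0.10. *Pbk* and *Lgals9* were far down the ranking, above only 5.28% and 5.91% of all genes in Ctrl and 3.47% and 4.13% in IR, while *Mefv* stood highest, above 58% and 57.9%. Since the libraries are scaled to each other, a fold in IP/Input is relative to the other genes and not an amount of bound RNA.

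**Figure D2:**
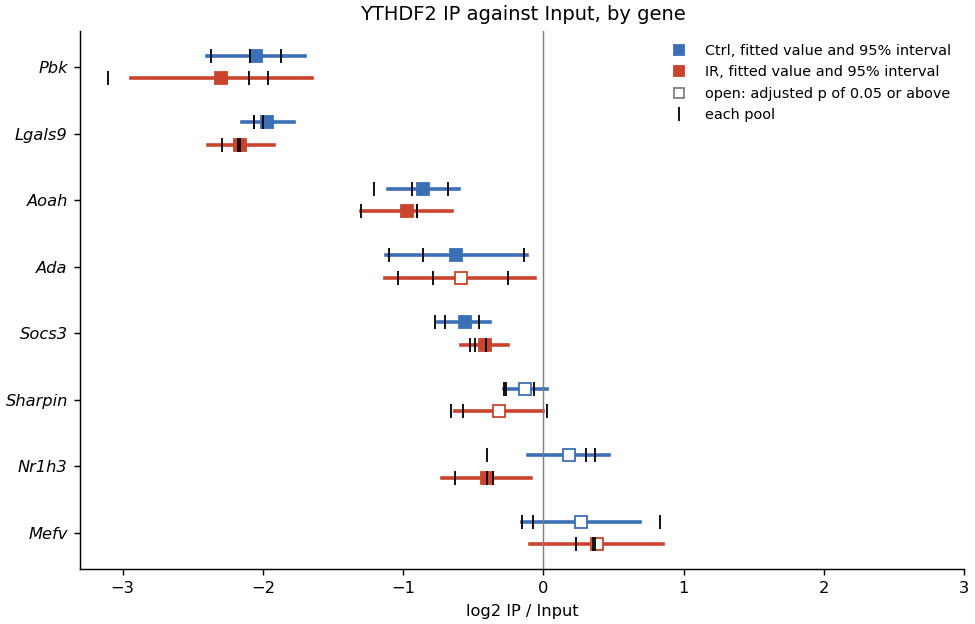
Log2 IP/Input of each gene in Ctrl (blue) and IR (red), with the fitted value (square) and its 95% interval (line) and the value in each pool (tick), which is on the scale of all 12 libraries; open squares had an adjusted p of 0.05 or above. *Pbk* and *Lgals9* lie near −2 in both conditions, *Aoah* near −0.9, and *Mefv* above 0.

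**Figure D3:**
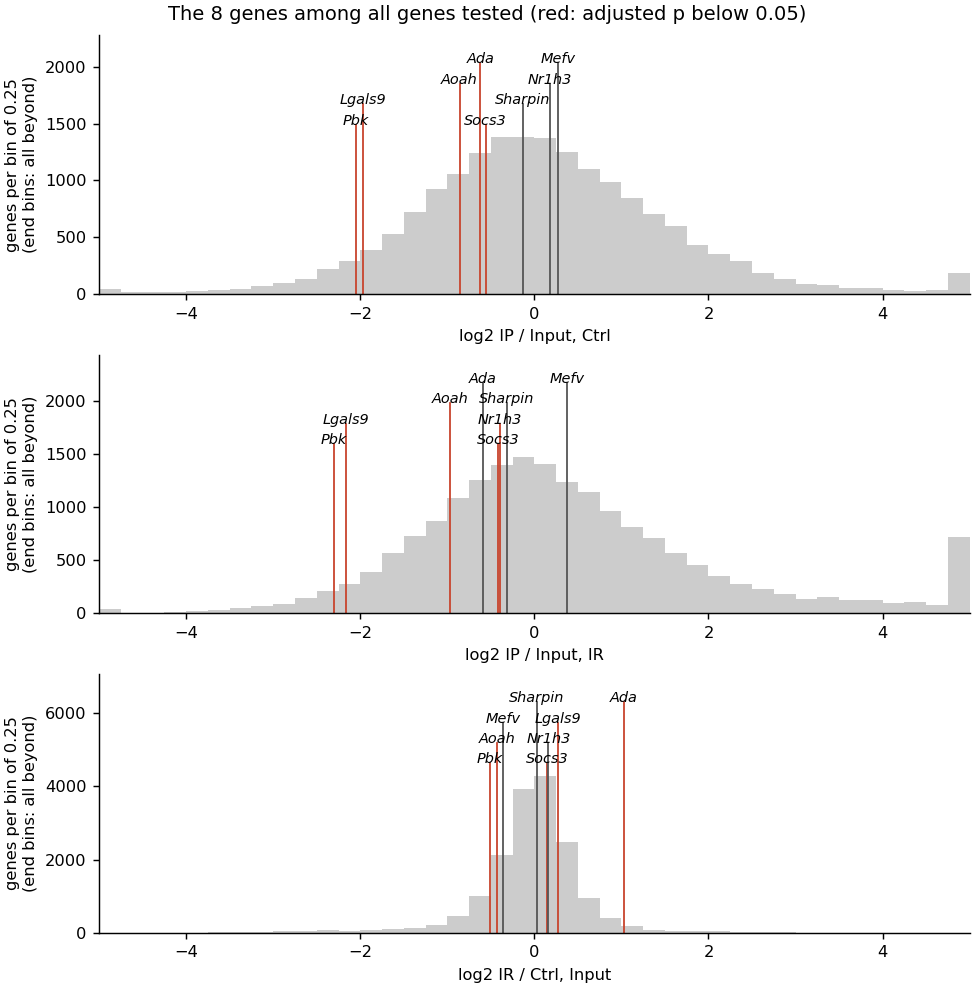
Distribution of the log2 ratios of all genes tested (grey bars, number of genes per bin of 0.25, with values beyond the axis pooled in the end bins) and the place of each of the 8 genes (lines, red where the adjusted p was below 0.05). *Lgals9* and *Pbk* lie in the left tail of both IP/Input distributions, and *Ada* in the right tail of the change with IR in Input.

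The change of IP/Input with IR was tested directly, as the interaction of fraction and condition over all 12 libraries. With edgeR's quasi-likelihood test 0 of 8 members were called, where 20.2% of the 20720 genes tested were (6.28% higher and 13.9% lower). At an unadjusted p under 0.05 there was 1, *Nr1h3*, and DESeq2 called 0. The log2 change of *Nr1h3* was −0.56 (SE 0.211, 95% interval −1.0 to −0.12, adjusted p = 0.0708). The other intervals held 0: −0.44 to 0.11 for *Lgals9*, −0.082 to 0.41 for *Socs3*, −0.51 to 0.32 for *Aoah*, −0.52 to 0.18 for *Sharpin*, −0.49 to 0.75 for *Mefv*, −0.66 to 0.75 for *Ada* and −0.88 to 0.44 for *Pbk*. The intervals were widest for *Ada*, *Mefv* and *Pbk*, the members with the fewest counts in IP. Without IR IP 1, *Sharpin* was called lower (−0.37, adjusted p = 0.0123), and *Nr1h3* was called lower without Ctrl IP 3 (−0.64, adjusted p = 0.0303) or IR IP 1 (−0.62, adjusted p = 0.0387).

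With IR, transcript abundance in the Inputs went up for 3 members (*Ada*, *Lgals9* and *Socs3*), where 21% of the 16914 genes tested were higher, and down for 2 (*Pbk* and *Aoah*), where 23.9% were lower (45% in either direction), by edgeR's quasi-likelihood test. In the IP, 2 members were higher in IR (*Ada* and *Socs3*), where 6.12% of 19255 genes were, and 0 were lower, where 9.85% were (16% in either direction). At an unadjusted p under 0.05, 1 member was lower in the IP, *Aoah*, and DESeq2 called 0 lower. *Ada* was the only member whose abundance moved by 2-fold or more, and its change in the Inputs was above that of 97.4% of all genes. The comparisons share libraries: the Inputs that give the change with IR are also the denominators of IP/Input, so the results of a gene are not independent of each other.

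**Figure D4:**
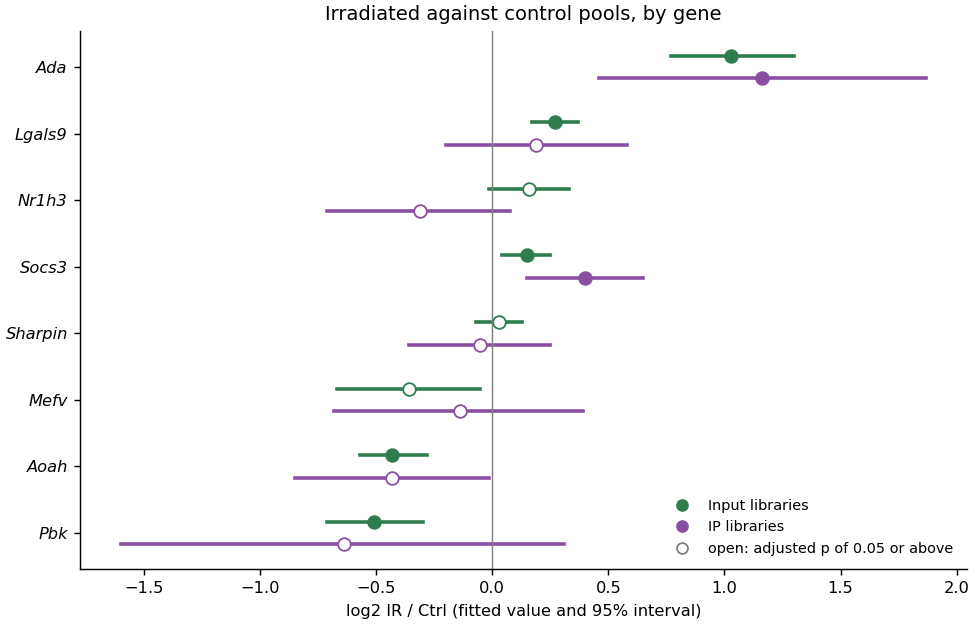
Log2 IR/Ctrl of each gene in the Input (green) and IP libraries (purple), with the fitted value and its 95% interval; open points had an adjusted p of 0.05 or above. *Ada* is the highest in both fractions, near 1, *Aoah* and *Pbk* lie below 0 in both, and the IP intervals are wider than the Input intervals for every gene.

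*Socs3* (ENSMUSG00000053113.3, chr11:117966079-117970047, minus strand) encodes an inhibitor of JAK kinases at gp130 and G-CSF receptors that is itself induced by these cytokines. Its level was 51.4, 51.7 and 56.1 CPM in the Ctrl Inputs and 30.1, 37.7 and 34.4 CPM in the matching IPs. In IR it was 64.1, 61.2 and 60.7 CPM in Input and 44.6, 46 and 43.3 CPM in IP. Every IP library was below every Input library of its condition, and every IR library above every Ctrl library of its fraction. IP/Input was −0.56 on the log2 scale in Ctrl (SE 0.0852, adjusted p = 1.38e-05) and −0.42 in IR (SE 0.0755, adjusted p = 5.97e-04), that is 1.48-fold and 1.34-fold lower in IP, by edgeR's quasi-likelihood test. Both calls held in every alternative, with −0.75 to −0.44 in Ctrl and −0.56 to −0.27 in IR. The rise with IR was small: log2 0.15 in Input (SE 0.0491, adjusted p = 0.0174) and 0.40 in IP (SE 0.116, adjusted p = 0.0267). In Input the call was lost without Ctrl Input 1, Ctrl Input 2 or IR Input 1 (0.12 each time, adjusted p up to 0.089), and in IP without Ctrl IP 1, Ctrl IP 3 or IR IP 2 (0.32 to 0.41, adjusted p up to 0.13).

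*Sharpin* (ENSMUSG00000022552.16, chr15:76347040-76351111, minus strand) encodes a subunit of LUBAC, the ligase that builds linear ubiquitin chains at TNF receptors, and mice that lack it develop severe skin inflammation. Its level was 55, 58.8 and 55 CPM in the Ctrl Inputs and 45.2, 48.9 and 52.6 CPM in the Ctrl IPs. In IR it was 59, 60.6 and 62.1 CPM in Input and 60.1, 40.9 and 39.3 CPM in IP. The Ctrl groups did not overlap, while in IR the IP library of pool 1 lay within the Inputs and the other two well below them. Neither difference was called: log2 IP/Input was −0.13 in Ctrl (95% interval −0.28 to 0.023, adjusted p = 0.122, edgeR) and −0.32 in IR (−0.63 to −0.0044, adjusted p = 0.0722). The call in IR depended on 1 library and on the settings of the fit. Without IR IP 1, the library with the largest share of reads that matched no counted feature (54.1%), it was −0.46 (adjusted p = 3.97e-04). With the replicate number as a block it was −0.35 (adjusted p = 0.0177). It was also called in settings without that block: without a filter on low counts (−0.46, adjusted p = 6.98e-06) and in 1 fit of all 12 libraries (−0.37, adjusted p = 0.00944). The change with IR in Input was 0.028 (95% interval −0.071 to 0.13), and it was not called in any alternative. In Ctrl the IP was called lower with library size as the only scaling (−0.31, adjusted p = 6.97e-04) and without a filter on low counts (−0.24, adjusted p = 0.00369).

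*Nr1h3* (ENSMUSG00000002108.10, chr2:91184061-91202834, minus strand) encodes LXR alpha, a nuclear receptor for oxysterols that raises cholesterol export genes and restrains inflammatory ones in macrophages. Its level was 16.2, 17.6 and 20 CPM in the Ctrl Inputs and 19.9, 22.8 and 15.1 CPM in the Ctrl IPs, which overlapped. In IR it was 21.8, 20.1 and 21.5 CPM in Input and 17, 13 and 16.3 CPM in IP, which did not. Log2 IP/Input was 0.18 in Ctrl (95% interval −0.11 to 0.47, adjusted p = 0.254, edgeR) and −0.40 in IR (SE 0.142, adjusted p = 0.0291). The call in IR was lost when any IR Input library, IR IP 2 or IR IP 3 was left out (−0.21 to −0.45, adjusted p up to 0.137), and with library size as the only scaling (−0.25, adjusted p = 0.147), with at least 10 counts in every library (−0.28, adjusted p = 0.107) or with protein-coding genes only (−0.27, adjusted p = 0.123). In Ctrl the IP was called higher without Ctrl IP 3 (0.36, adjusted p = 0.013). The change with IR was 0.16 in Input (SE 0.0834, adjusted p = 0.135), called higher without Ctrl Input 3 (0.23, adjusted p = 0.041), and −0.31 in IP (adjusted p = 0.29). *Nr1h3* shares 34 bases, 1.35% of its exons, on the same strand with the noncoding gene *Gm13783*. That gene had 7 to 18 counts per Input library and 48 to 156 per IP library, against 406 to 866 per library for *Nr1h3*. Its part in the IP/Input of *Nr1h3* was not tested.

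*Mefv* (ENSMUSG00000022534.14, chr16:3707218-3718097, minus strand) encodes pyrin, a sensor that forms an inflammasome when RhoA is inactivated and whose human variants cause familial Mediterranean fever. It was a low transcript, with 171 to 306 counts per library. Its level was 4.89, 6.37 and 7.52 CPM in the Ctrl Inputs and 8.71, 6.06 and 6.78 CPM in the Ctrl IPs, which overlapped. After IR it was 5.37, 5.14 and 4.98 CPM in Input and 6.98, 6.58 and 5.85 CPM in IP, so that each IP was above each Input. It was the only member with a positive fitted IP/Input in both conditions, 0.27 in Ctrl (95% interval −0.15 to 0.69) and 0.38 in IR (−0.094 to 0.85), and neither was called by edgeR (adjusted p = 0.237 and 0.147). Without IR IP 3 the IR value was 0.52 and was called (adjusted p = 0.0416). The Input change with IR was −0.36 (SE 0.150, adjusted p = 0.0526), with overlapping libraries, and without Ctrl Input 1 it was −0.51 and called lower (adjusted p = 0.00694).

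*Lgals9* (ENSMUSG00000001123.15, chr11:78962974-78984946, minus strand) encodes galectin-9, a secreted lectin that binds TIM-3 on T cells and myeloid cells. Its level was 46, 47.8 and 46 CPM in the Ctrl Inputs and 11.5, 11.4 and 11 CPM in the Ctrl IPs. After IR it was 56.4, 61.5 and 60.4 CPM in Input and 11.5, 13.7 and 13.2 CPM in IP. No IP library came near any Input library, and the pools hardly differed, with log2 IP/Input of −2.0, −2.06 and −2.06 in Ctrl and −2.29, −2.16 and −2.18 in IR. The fitted value was −1.97 in Ctrl (SE 0.0876, adjusted p = 1.33e-12) and −2.16 in IR (SE 0.105, adjusted p = 1.73e-08), 3.91-fold and 4.46-fold lower in IP by edgeR's quasi-likelihood test. Over all alternatives it stayed between −2.15 and −1.87 in Ctrl and between −2.29 and −2.01 in IR. Its abundance rose with IR by 1.21-fold in Input (log2 0.27, SE 0.05, adjusted p = 6.66e-05), a call that held in every alternative. In IP the change was 0.19 (95% interval −0.20 to 0.58, adjusted p = 0.554).

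*Aoah* (ENSMUSG00000021322.8, chr13:20794113-21036617, plus strand) encodes acyloxyacyl hydrolase, a lipase of phagocytes that removes acyl chains from bacterial lipopolysaccharide (LPS) and so inactivates it. Its level was 29.1, 32.2 and 28.9 CPM in the Ctrl Inputs and 12.6, 16.8 and 18.1 CPM in the Ctrl IPs. After IR it was 24.4, 22.7 and 23.9 CPM in Input and 13, 12.1 and 9.67 CPM in IP. The fractions were apart in both conditions, and the IR Inputs lay below the Ctrl Inputs. Log2 IP/Input was −0.86 in Ctrl (SE 0.121, adjusted p = 6.78e-06, edgeR) and −0.97 in IR (SE 0.146, adjusted p = 1.70e-04), and both calls held in every alternative. Abundance fell with IR by 0.43 on the log2 scale (SE 0.0690, adjusted p = 1.19e-05), 1.34-fold lower. That call held whichever library was left out. In 1 fit of all 12 libraries, where the IP libraries also enter the scaling and the spread, the change was −0.35 with an adjusted p of 0.0851. In IP the change was of the same size, −0.43, with overlapping libraries and an adjusted p of 0.158.

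*Ada* (ENSMUSG00000017697.3, chr2:163726584-163750239, minus strand) encodes adenosine deaminase, which turns adenosine, an immunosuppressive nucleoside in tumors, into inosine. Its level was 5.61, 4.16 and 5.04 CPM in the Ctrl Inputs and 9.67, 11.3 and 11 CPM in the IR Inputs. In IP it was 2.59, 3.78 and 2.76 CPM in Ctrl and 5.56, 9.48 and 5.32 CPM in IR. The IR libraries were above the Ctrl libraries in both fractions, without overlap. The rise in Input was 2.04-fold (log2 1.03, SE 0.129, adjusted p = 2.28e-07, edgeR), called in every alternative with 0.92 to 1.13. In IP it was 2.24-fold (log2 1.16, SE 0.330, adjusted p = 0.0237), and the call was lost without Ctrl IP 1 (1.06), Ctrl IP 3 (1.10) or IR IP 2 (0.86), with adjusted p of up to 0.126. *Ada* is also expressed by lymphocytes. Among B cell markers in the Inputs, *Pax5* had means of 3.64 CPM in Ctrl and 7.29 CPM in IR and *Ms4a1* 2.15 and 2.3 CPM, while *Cd79a* had 3.67 and 2.06 CPM and *Cd79b* 6.67 and 4.74 CPM, and their part in the rise of *Ada* was not tested.

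IP/Input of *Ada* was near the threshold in both conditions. It was −0.62 in Ctrl (SE 0.237, adjusted p = 0.0287) and −0.59 in IR (SE 0.241, adjusted p = 0.0508) by edgeR, with no overlap of the fractions in either. The pools ranged from −1.10 to −0.140 in Ctrl and from −1.04 to −0.25 in IR. In Ctrl the call was lost without Ctrl Input 1, Ctrl Input 3, Ctrl IP 1 or Ctrl IP 3 (−0.63 to −0.48, adjusted p up to 0.121), and with protein-coding genes only (−0.52, adjusted p = 0.0686). After IR it was reached with the replicate number as a block (−0.64, adjusted p = 0.0253) and without IR IP 2 (−0.83, adjusted p = 0.00324). The values themselves were close in Ctrl and IR, and the interaction was 0.047 (SE 0.337).

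*Pbk* (ENSMUSG00000022033.9, chr14:65805837-65817822, plus strand) encodes a kinase that is active in mitosis and is expressed in dividing cells. Its level was 12.5, 13.5 and 14.5 CPM in the Ctrl Inputs and 9.31, 10.3 and 10.5 CPM in the IR Inputs. In IP it was 3.36, 3.12 and 2.76 CPM in Ctrl and 2.35, 2.36 and 1.17 CPM in IR. Again the fractions were far apart, and IR was below Ctrl without overlap in each fraction. Log2 IP/Input was −2.05 in Ctrl (SE 0.164, adjusted p = 4.57e-09) and −2.30 in IR (SE 0.292, adjusted p = 4.60e-05), 4.15-fold and 4.92-fold lower in IP by edgeR's quasi-likelihood test, and was called in every alternative. The IR IP values rest on 35 to 78 counts. Abundance fell with IR by 0.51 on the log2 scale (SE 0.0998, adjusted p = 1.37e-04), 1.42-fold lower, and this call was lost only in the fit of all 12 libraries (−0.43, adjusted p = 0.176). In IP the fitted change was −0.64 with a wide interval (−1.6 to 0.31, adjusted p = 0.385).

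The pathways around the members were read from lists of related genes that include the members themselves, with the calls of the same fits. Each count is to be read against all genes tested, of which 34.1% were higher and 34.6% lower in IP in Ctrl (median 0.018), and 21% higher and 23.9% lower in Input with IR (median 0.0072). Around *Pbk*, 14 of 17 mitotic genes were depleted from the IP in Ctrl and 3 were enriched, with a median log2 IP/Input of −0.87. *Ccnb1* (cyclin B1, −2.92) and *Ccna2* (cyclin A2, −1.96) were the lowest beside *Pbk*. With IR, 16 of 17 were lower in Input and 0 were higher (median −0.53), led by *Ccnb1* (−1.12), *Mki67* (−1.01) and *Ccnb2* (−0.92), so *Pbk* moved in the same direction as nearly all of its list. Around *Lgals9*, 5 of 7 tested genes of the galectin and TIM-3 list were lower in IP in both conditions, with a median of −1.32 in Ctrl. The other two, *Lgals4* (1.06) and *Havcr2*, which encodes TIM-3 (0.50), were higher in IP in Ctrl and not called in IR, where 30.4% of all genes were lower. *Lgals1* was lower than *Lgals9* (−2.77) and *Lgals8* was at −1.63. In Input, 4 of 7 were higher with IR, among them *Lgals3* (0.44) and *Lgals4* (0.56), and 0 were lower.

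*Socs3* stood apart from most of its family in direction. Of the 8 SOCS genes, 5 were higher in IP in Ctrl, with *Socs4* at 1.6, *Socs7* at 1.36 and *Socs6* at 0.87, and only *Socs3* and *Cish* were lower. With IR, 5 of 8 were higher in Input and 0 lower, the largest being *Socs1* (0.38). Upstream of *Socs3*, the receptor genes *Il6ra* (2.65) and *Il6st*, which encodes gp130 (1.06), were higher in IP in Ctrl. However, 7 of the 12 tested genes of gp130 signaling were lower, among them *Csf3r*, the G-CSF receptor gene (−0.26). The receptor gene *Lifr* was not called (−0.19). Of the 9 genes of the LUBAC list around *Sharpin*, 3 were higher and 4 lower in IP in Ctrl, with *Otulin*, the linear-chain deubiquitinase, at 0.89 and *Ikbkg*, the IKK subunit that binds linear chains, at −0.83. With IR, 2 of them were higher in Input and 3 lower, and *Spata2* (−0.33) had the largest change. Among 14 genes for NF-kB subunits, IkB proteins and IKK, 9 were lower and 5 higher in IP in Ctrl, where 34.6% and 34.1% of all genes were. In Input 4 were higher and 1 lower with IR, where 21% and 23.9% of all genes were.

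The lists around the other members held calls in both directions, with shares over all genes as given above. Of the 13 LXR genes around *Nr1h3*, 6 were higher and 6 lower in IP in Ctrl: the partners *Ncor1* (2.26) and *Rxra* (2.22) were far higher, unlike *Nr1h3*. For the change of IP/Input with IR, 6 of the 13 were called lower and 2 higher, where 13.9% and 6.28% of all genes were, *Abca1* (1.55) being highest and *Ncor1* (−0.90) lowest. Of the 13 tested genes of adenosine handling, *Ada* was the only one that rose in Input with IR, and 4 fell, among them *Adk*, the kinase that also clears adenosine (−0.46). In IP against Input in Ctrl, *Hprt* (−2.67) and *Adk* (−2.64) were lowest and the receptor gene *Adora3* (2.03) highest, with 6 genes called in each direction. Of the 9 tested genes of LPS recognition, 4 were higher in IP in Ctrl, among them *Ticam1* (1.5), *Tlr4* (1.42) and *Cd14* (1.35), and 5 lower, with *Aoah*. With IR, 1 was higher in Input and 4 lower, led by *Lbp* (−0.79), with *Tlr4* (−0.45) and *Aoah* also among them. Of the 13 genes of the pyrin and inflammasome list, 8 rose in Input with IR, led by *Nlrp1b* (0.90) and *Pycard* (0.78), and 1 fell, while *Mefv* was not called.

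**Figure D5:**
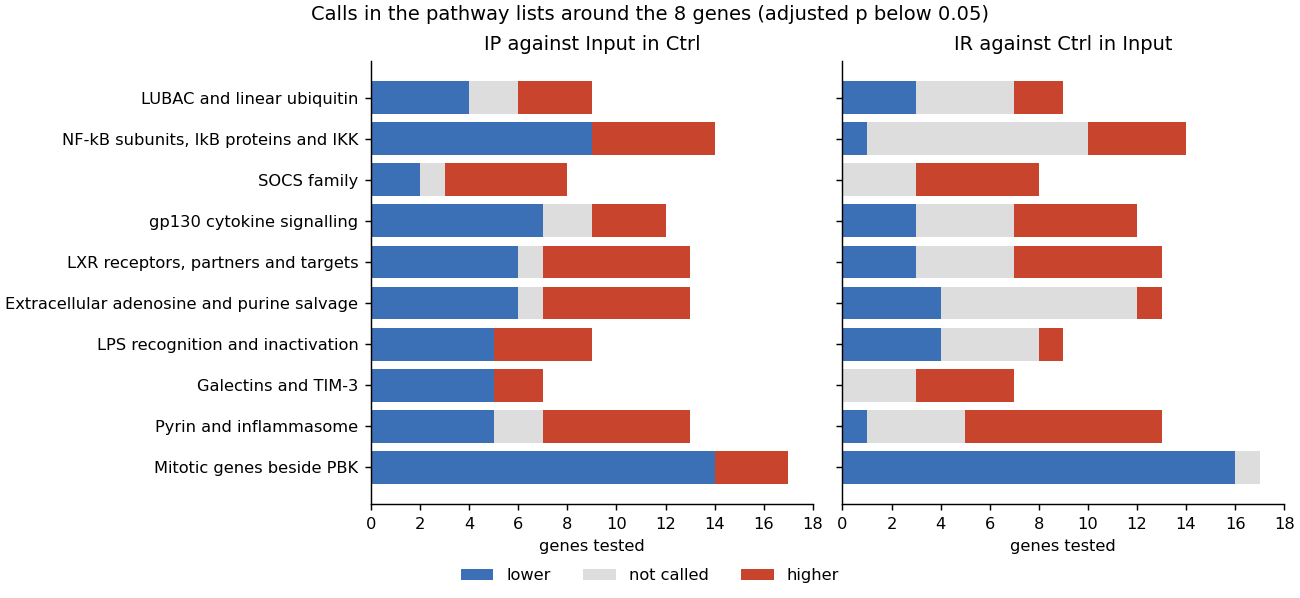
Number of genes called lower (blue), not called (grey) and higher (red) in each pathway list, for IP against Input in Ctrl (left) and IR against Ctrl in Input (right); each list includes its member or members of the 8 genes. The mitotic list is mostly lower in both panels, and the SOCS and galectin lists hold no gene that was lower with IR in Input.

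For each member the 2 protein-coding genes with the most similar level over the 12 libraries were found among 10559 genes, by Pearson's r of log2 CPM. These r are descriptions over libraries that fall into 4 groups and share their Input and IP split, and no p is given for them. *Lgals9* was nearest to *Gdi2* and *Bst1* (r = 0.999 each), *Pbk* to *Nup205* (0.993) and *Apmap* (0.991), *Aoah* to *Slc25a22* (0.987) and *Tifa* (0.981), and *Socs3* to *Pmaip1* (0.982) and *Prps2* (0.980). *Ada* was nearest to *Ermard* (0.967) and *Cd274* (0.956), which encodes PD-L1, and *Sharpin* to *Rsph3b* (0.950) and *Ganc* (0.942). *Nr1h3* (*Scrn3*, 0.875, and *Bcat2*, 0.841) and *Mefv* (*Srf*, 0.855, and *Aste1*, 0.833) had no neighbor above 0.9.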

How the data were processed

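RIP-seq was analyzed from the 12 deposited tables of counts. Trimming by the authors used Trimmomatic 0.39, alignment used HISAT on mm10 and GENCODE M19, and the deposited values are whole-number counts of reads per gene from HTSeq, not normalized. The strand option of the counting is not given in the sources used here, and the sources differ on the antibody (Aviva or Abcam) and on whether mRNA was isolated first. Lines for reads not assigned to a gene, 26.9 to 55.1% of reads, were left out of library sizes.

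Here counts were scaled with TMM and tested with edgeR 4.0.16 in R 4.3.3. A gene entered a test if 3 or more of its libraries had 10 or more counts. The standard error is the absolute log2 fold change over the square root of F. CPM and values per pool (prior count 2) use the scale of all 12 libraries, whereas each test scales its own libraries, so ratios of CPM can differ by about 0.1 from fitted values. Counting limits of 3 counts correspond to 0.0708 to 0.108 CPM and cover counting error only. Alternatives were DESeq2 1.42.0, its size factors, library size only, other filters, protein-coding genes only, all libraries in 1 fit, the replicate block and each library left out. Names, lengths and sequences came from GENCODE M21 on the same build. 97.8% of identifiers matched with their version.

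IP and Input of a pool came from the same lysate by the study's methods and were paired by number, although deviations of same-numbered libraries did not correlate (r from −0.036 to 0.015). Ctrl and IR pools were different mice. Named genes were the 8 members, up to 3 called genes per list with the largest change and a mean of at least 100 counts, the 2 nearest genes by r, and overlapping genes. *Cish*, *Havcr2*, *Csf3r*, *Lifr* and the monocyte and macrophage markers other than *Itgam* were named after their values were seen. 1 marker gene is not reported here. The members and the lists were chosen with earlier results of these data known. In simulated counts, the test recovered 90% of 2-fold changes for IP against Input in Ctrl, 74% in IR, 58% for the interaction, 94% for IR in Input and 69% in IP. The simulation changed 200 genes with higher counts and left all others unchanged, unlike the data. These shares are therefore not the power of the tests on the members.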

Additional observations from a re-analysis of the deposited data

How the results depend on the processing

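The direction and the call of *Lgals9*, *Pbk*, *Aoah* and *Socs3* in IP against Input, and of *Ada* and *Lgals9* in Input with IR, held in every alternative that was run. With library size as the only scaling, which moved the median of all genes by −0.18 in Ctrl, 0.15 in IR, 0.31 for the interaction and 0.21 for IR in IP, several uncalled values changed sign: *Nr1h3* in Ctrl (−0.0025), the interactions of *Sharpin* (0.15), *Lgals9* (0.14), *Aoah* (0.22) and *Pbk* (0.094), and *Sharpin* (0.16) and *Mefv* (0.065) for IR in IP. The interaction then called 1 member higher, *Socs3* (0.48, adjusted p = 0.00687 against 0.384), and 2862 genes higher and 877 lower in place of 1301 and 2881, so that the share of higher calls went to 76.5%. For IR in IP 2665 were higher and 828 lower in place of 1179 and 1896, a share of 76.3%. Without a filter on low counts the interaction called 1 member lower, *Nr1h3* (−0.58, adjusted p = 0.0252), and with at least 10 counts in every library the interaction of *Aoah* was 0.017. In 1 fit of all 12 libraries 0 members were lower with IR in Input, 1500 genes were lower in place of 4047 and the share of higher calls was 63.6%, while in IP 1 member was lower (*Aoah*, −0.44) and 2125 genes were higher and 2952 lower. The cause of these shifts was not tested. *Sharpin* and *Ada* in IR were also called lower without a filter (−0.46 and −0.73) and in the fit of all 12 libraries (−0.37 and −0.65), where the rise of *Socs3* in Input was not called (0.22, adjusted p = 0.0656). *Mefv* was called lower in Input with library size only (−0.38). The replicate block changed 2 calls of the members, *Sharpin* (−0.35) and *Ada* (−0.64) in IR.

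With each library left out in turn, the members called higher numbered 0 to 1 in Ctrl, 0 to 1 in IR, 0 for the interaction, 2 to 4 in Input and 0 to 2 in IP. Those called lower numbered 4 to 5, 4 to 6, 0 to 2, 2 to 3 and 0. Interactions ran from −0.25 to 0.30 for *Ada*, −0.025 to 0.35 for *Mefv*, −0.18 to 0.087 for *Aoah*, −0.37 to 0.0076 for *Sharpin* and −0.35 to 0.11 for *Pbk*, and the IP changes from −0.25 to 0.026 for *Mefv* and −0.26 to 0.065 for *Sharpin*. Genes called higher with IR in IP fell to as few as 715. Of 312 values under the other alternatives, 285 kept direction and call, as did 248 of 288 with 1 library left out. Depth limits *Pbk*, *Ada* and *Mefv* most, since their IP values rest on 35 to 314 counts.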
